A study of Rattus norvegicus with 9 samples.

Results

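The genes described here encode the subunits of the NMDA receptor, a glutamate-gated cation channel. They comprise 6 genes, Grin1, Grin2a, Grin2b, Grin2c, Grin2d and Grin3a, and 11 probe sets of 31042 on the array that are not controls. The members were all probe sets whose platform annotation gives exactly 1 gene symbol and whose symbol is among these 6. Grin1, Grin2b and Grin2d each had a pair of probe sets, Grin2a had 3, and Grin2c and Grin3a had 1 each.

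Total RNA was taken from dissected cortical tissue of newborn rats (Hsd:Sprague Dawley SD stock) at postnatal day 4. The F0 parents had eaten 4-methylimidazole (4-MeI), a heterocycle formed when foods brown, from 2 weeks before mating and through 3 pregnancies, and exposure went on over the generations. The pups belonged to the F2b litters, with 1 pup taken per litter. The groups were pups of the control diet (0 ppm), pups of the 750 ppm diet and pups of the 2500 ppm diet, with 3 arrays each. The title of the series adds maternal seizures to the setting, but no label says which dams had seizures, and the labels give no sex, array batch or scan time.

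An NMDA receptor is built from GluN1, the subunit encoded by Grin1 that every such receptor needs, together with GluN2 or GluN3 subunits. GluN1 binds the co-agonist glycine or D-serine, GluN2 binds glutamate, and magnesium blocks the pore until the membrane is depolarised. In rodent forebrain the GluN2 subunits change with age: GluN2B and GluN2D dominate before and around birth, and GluN2A and, in some cells, GluN2C are added over the following weeks. GluN3A, also most abundant in early postnatal life, lowers the calcium permeability and magnesium block of the receptors it joins. The balance of Grin2b against Grin2a is therefore a usual marker of how mature a young cortex is.

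Values are log2 intensities from the robust multi-array average (RMA), so a difference of 1 is a doubling of intensity. The number of arrays, 3 a group, limits the precision. Median log2 intensity ranged from 7.67 to 7.71 over the 9 arrays. Control replicate 3 and 750 ppm replicate 3 stood apart: on the first principal component they scored -25.2 and 15.0, against -9.47 to -8.64 in the other controls, -11.3 and -5.97 in the other 750 ppm arrays, and 10.3 to 18.8 at 2500 ppm. The mean log2 level of 8 markers of cortical excitatory neurons was 10.48 to 10.57 in controls, 10.21 to 10.44 at 750 ppm and 10.48 to 10.65 at 2500 ppm. All 750 ppm arrays thus lay below all controls in this mean, with 7 markers lower and 1 higher. At 2500 ppm the mean covered moves both ways, with 4 markers higher and 4 lower than in controls, from -0.60 to 0.58.

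No NMDA receptor subunit gene passed the test across all probe sets at either dietary concentration. Of the 9 member probe sets bright enough to be tested, 0 had an adjusted p under 0.05 at 2500 ppm against control, where 0.686% of all 21729 tested probe sets did. None passed at 750 ppm against control (0.0092% of all) or at 2500 ppm against 750 ppm (0.322% of all). With an unadjusted p under 0.05 there were 2 members at 2500 ppm against control, 1 at 750 ppm against control and 0 at 2500 ppm against 750 ppm, against 16%, 10.1% and 12.6% of all probe sets. The closest to a call was a Grin2a probe set, 1380861_at, which was lower on all arrays of both exposed groups than on any control array.

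The tested subunit probe sets moved in both directions. At 2500 ppm against control, 4 of the 9 were higher and 5 lower, with a median change of -0.058 beside 0.0070 for all probe sets. At 750 ppm against control, 2 were higher and 7 lower, with a median of -0.088 beside 0.0023. Groups did not overlap for 3 members at 2500 ppm against control, 1 at 750 ppm against control and 2 at 2500 ppm against 750 ppm, where 23.3%, 14.2% and 17.4% of all tested probe sets did not overlap. Outside 1380861_at, the 95% confidence intervals of the other 8 members reached at most from -0.68 to 0.29 at 2500 ppm against control and from -0.55 to 0.23 at 750 ppm against control.

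**Figure D1:**
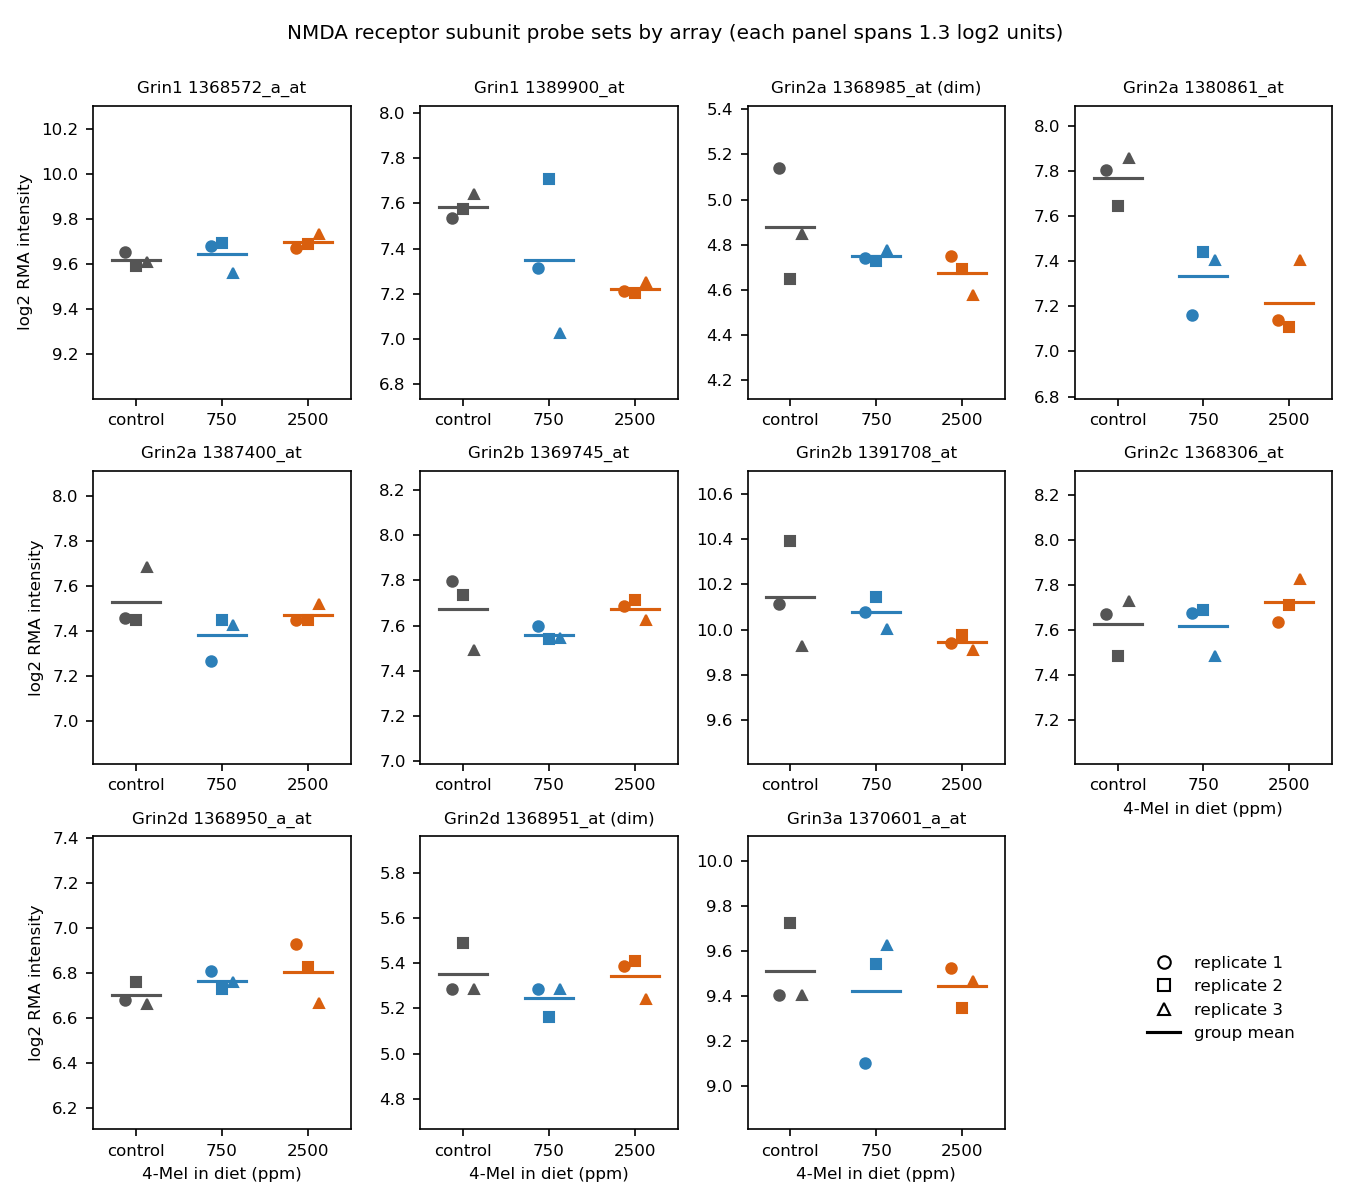
Log2 RMA intensity (vertical axis, 1.3 log2 units in every panel) of the 11 probe sets on each of 9 arrays, by 4-MeI in the diet (horizontal axis, ppm). Points are arrays, marked by replicate number, and lines are group means. Grin2a 1380861_at is the panel where all 6 exposed arrays, at 7.11 to 7.44, lie below the 3 controls, at 7.65 to 7.86. The panels marked dim hold probe sets left out of the test.

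Grin1 encodes the obligatory subunit, and its probe sets went different ways. The brighter, 1368572_a_at, had 9.65, 9.59 and 9.61 in controls, 9.68, 9.69 and 9.56 at 750 ppm and 9.67, 9.69 and 9.73 at 2500 ppm. All 2500 ppm arrays lay above all controls, but the distance was small, at 0.079 (SE 0.058, n = 3 against 3, limma adjusted p = 0.536). Of all members it varied least, with an SD of 0.055 over the 9 arrays.

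The other Grin1 probe set, 1389900_at, had 7.54, 7.57 and 7.64 in controls, 7.31, 7.71 and 7.03 at 750 ppm and 7.21, 7.20 and 7.25 at 2500 ppm. Here the 2500 ppm arrays lay below the controls without overlap, while the 750 ppm arrays spread across both. The change was -0.36 at 2500 ppm (SE 0.14, adjusted p = 0.251) and -0.23 at 750 ppm (SE 0.14, adjusted p = 0.584). At 750 ppm the change was -0.41 without 750 ppm replicate 2 and -0.074 without 750 ppm replicate 3. With only the arrays of the 2500 ppm and control groups fitted, 1389900_at passed at 2500 ppm with an adjusted p of 0.0325, in a fit where 481 of all 21729 probe sets passed against 149 as reported. The distance between both Grin1 probe sets, a measure chosen after the values were seen, differed by -0.44 at 2500 ppm against control (exact permutation test, two-sided p = 0.1, the smallest that 3 against 3 allows; 0.15 adjusted over 6 such tests).

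Grin2a encodes GluN2A, the subunit added to forebrain receptors as they mature. Its probe set 1380861_at had 7.80, 7.65 and 7.86 in controls, 7.16, 7.44 and 7.41 at 750 ppm and 7.14, 7.11 and 7.41 at 2500 ppm. The lowest control lay above the highest exposed array in each comparison, and the 2 exposed groups overlapped each other. Both exposed groups lay below control without overlap for 2.55% of all tested probe sets. Its mean was 7.22 ± 0.17 at 2500 ppm against 7.77 ± 0.11 in controls (SD, n = 3 each), a change of -0.55 (SE 0.11, 95% interval -0.79 to -0.31), or an intensity 0.682 times that of controls. This was the smallest p of any member, 0.000521, and ranked 195 of 21729, which gave an adjusted p of 0.0577. At 750 ppm the mean was 7.34 ± 0.15 (SD, n = 3), a change of -0.43 from control (SE 0.11, 95% interval -0.67 to -0.19, adjusted p = 0.221). The exposed groups differed by -0.12 at 2500 ppm against 750 ppm (SE 0.11, adjusted p = 0.686). A straight line over concentration had a slope of -0.19 per 1000 ppm (SE 0.054, adjusted p = 0.144), where 0.479% of all probe sets passed and the lowest adjusted p of the other members was 0.303.

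The side of the threshold on which this probe set fell depended on the fit. Its change at 2500 ppm was negative in all 17 alternatives, between -0.65 and -0.50. Several of these could not alter it, such as another filter, another variance model, the replicate block or fewer 750 ppm arrays. They left the change at -0.55, so its sign there was fixed in advance. An adjusted p under 0.05 came from 4 alternatives: array weights (0.00881), only the arrays of both groups compared (0.0418), and leaving out 750 ppm replicate 3 (0.0434) or 750 ppm replicate 1 (0.0490). Of these 4, only array weights altered the change itself, to -0.57. At 750 ppm only array weights gave an adjusted p under 0.05 (0.0473). With array weights, 1495 of all tested probe sets passed at 2500 ppm and 340 at 750 ppm, against 149 and 2 as reported; with only the arrays of both groups, 481 passed at 2500 ppm, and without 750 ppm replicate 3, 466. Without both arrays that stood apart, the change was -0.51 at 2500 ppm (adjusted p = 0.0921) and -0.42 at 750 ppm (adjusted p = 0.243).

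**Figure D2:**
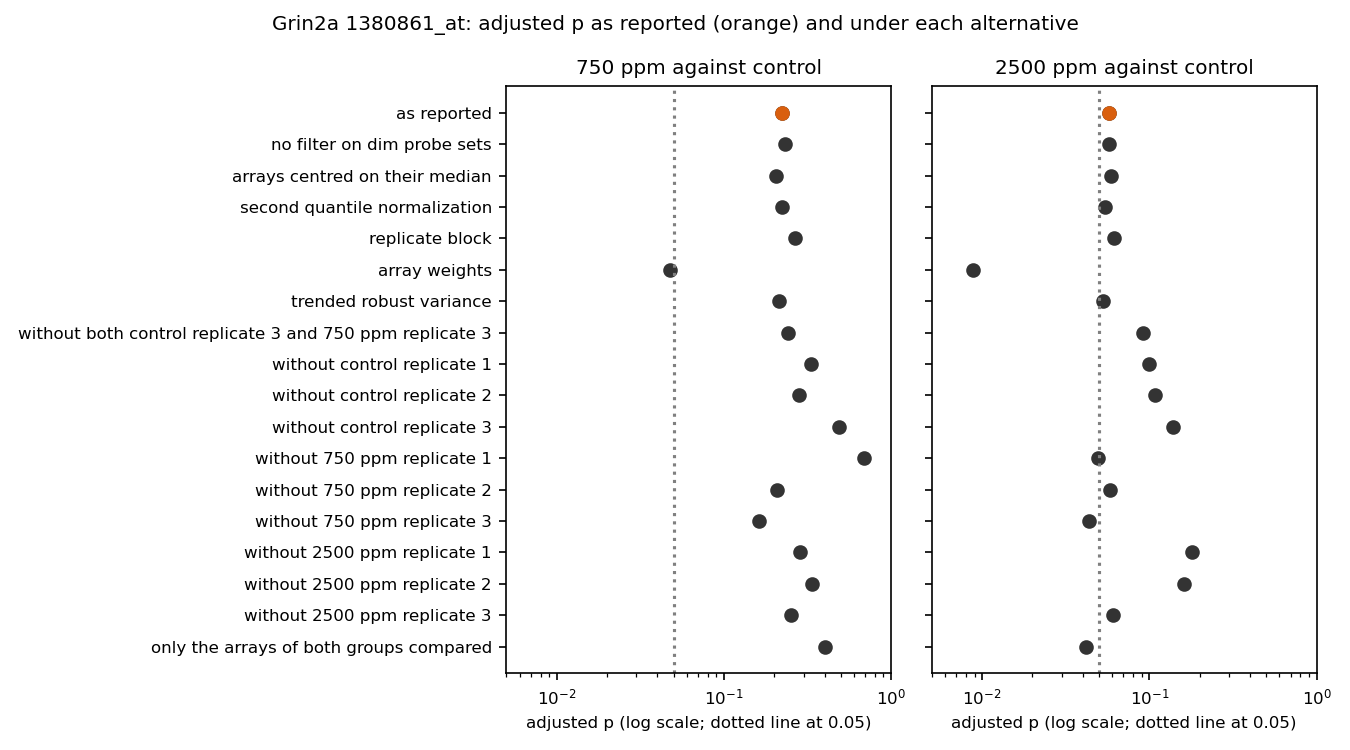
Adjusted p of Grin2a 1380861_at (horizontal log axis) at 750 ppm against control and 2500 ppm against control, as reported in orange and under each alternative in black, with a dotted line at 0.05. At 2500 ppm the values lie around the line, from 0.00881 to 0.179, and at 750 ppm 1 of 17 alternatives lies below it.

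The remaining Grin2a probe sets gave smaller differences. The probe set 1387400_at, which has the highest mean of the 3, had 7.46, 7.45 and 7.68 in controls, 7.26, 7.45 and 7.43 at 750 ppm and 7.45, 7.45 and 7.52 at 2500 ppm. The groups overlapped, and the change was -0.058 at 2500 ppm (SE 0.081, 95% interval -0.24 to 0.12, adjusted p = 0.760) and -0.15 at 750 ppm (SE 0.081, 95% interval -0.33 to 0.033, adjusted p = 0.558). Its deposited value was exactly the same on 4 of the 9 arrays, from all 3 groups, and 1.84% of tested probe sets had at least 4 equal values. The probe set 1380861_at also had a shared value, 7.41 on 750 ppm replicate 3 and 2500 ppm replicate 3. At least 2 arrays shared a value for 30.6% of tested probe sets. The third, 1368985_at, was too dim for the test, with 5.14, 4.65 and 4.85 in controls, 4.74, 4.73 and 4.78 at 750 ppm and 4.75, 4.69 and 4.58 at 2500 ppm.

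The gap between 1380861_at and 1387400_at was computed on each array after the values were seen. It was 0.35, 0.20 and 0.18 in controls, -0.10, -0.0081 and -0.021 at 750 ppm and -0.31, -0.34 and -0.11 at 2500 ppm. No group overlapped another, and the values ran down in the order of dietary concentration. The gap differed by -0.49 at 2500 ppm against control, by -0.28 at 750 ppm against control and by -0.21 at 2500 ppm against 750 ppm (exact permutation tests, two-sided p = 0.1 each, the smallest possible; 0.15 adjusted over 6). Over all 3 groups at once, the exact permutation p was 0.00357, the smallest that 9 arrays in 3 groups can give, on a measure picked for its values. The 2 probe sets were annotated to different sequence records, that of 1380861_at an expressed sequence tag, and the positions of their probes in the gene were not used here.

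Grin2b encodes GluN2B, the GluN2 subunit of the immature cortex. Its brighter probe set, 1391708_at, had 10.11, 10.39 and 9.93 in controls, 10.08, 10.15 and 10.00 at 750 ppm and 9.94, 9.98 and 9.91 at 2500 ppm. Its mean stood above 81.0% of all probe sets, the highest position of any member. The 2500 ppm arrays lay below all 750 ppm arrays and overlapped control replicate 3 alone among the controls. The change was -0.20 at 2500 ppm against control (SE 0.11, 95% interval -0.44 to 0.036, adjusted p = 0.391) and -0.069 at 750 ppm against control (SE 0.11, adjusted p = 0.838). Without control replicate 2, the highest array, the change was -0.077 at 2500 ppm and 0.056 at 750 ppm; without control replicate 3 it was -0.31 at 2500 ppm.

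The other Grin2b probe set, 1369745_at, had 7.80, 7.74 and 7.49 in controls, 7.60, 7.54 and 7.54 at 750 ppm and 7.69, 7.71 and 7.63 at 2500 ppm. Control replicate 3 was the lowest of all 9. The group means at 2500 ppm and in controls were the same to 2 decimals, 7.68 ± 0.044 and 7.68 ± 0.16 (SD, n = 3 each), with a 95% interval of the difference of -0.18 to 0.18. At 750 ppm the change was -0.12 against control (SE 0.080, adjusted p = 0.628).

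Grin2c and Grin2d encode the other GluN2 subunits, GluN2C of cerebellar granule cells and some glia and interneurons, and GluN2D of immature brain and of interneurons. The Grin2c probe set had 7.67, 7.49 and 7.73 in controls, 7.68, 7.69 and 7.49 at 750 ppm and 7.64, 7.71 and 7.83 at 2500 ppm. Its groups overlapped, with a change of 0.095 at 2500 ppm (SE 0.088, adjusted p = 0.628) and -0.011 at 750 ppm (SE 0.088, adjusted p = 0.978), both against control.

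For Grin2d, 1368950_a_at had 6.68, 6.76 and 6.66 in controls, 6.81, 6.73 and 6.76 at 750 ppm and 6.93, 6.82 and 6.67 at 2500 ppm. It was the dimmest member tested, only slightly above the limit of 6.35, and its change was 0.11 at 2500 ppm (SE 0.074, adjusted p = 0.516) and 0.066 at 750 ppm (SE 0.074, adjusted p = 0.773). The other Grin2d probe set, 1368951_at, was too dim for the test and lay between 5.16 and 5.49 on all arrays. With no limit on brightness its change was -0.0081 at 2500 ppm against control (adjusted p = 0.972), and that of the dim Grin2a probe set 1368985_at was -0.20 (adjusted p = 0.441).

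Grin3a encodes GluN3A. Its probe set had 9.40, 9.72 and 9.41 in controls, 9.10, 9.54 and 9.63 at 750 ppm and 9.53, 9.35 and 9.47 at 2500 ppm. The range within the 750 ppm group covered nearly the range of all arrays, and the change was -0.065 at 2500 ppm (SE 0.14, 95% interval -0.38 to 0.25, adjusted p = 0.851) and -0.088 at 750 ppm (SE 0.14, 95% interval -0.40 to 0.23, adjusted p = 0.844).

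**Figure D3:**
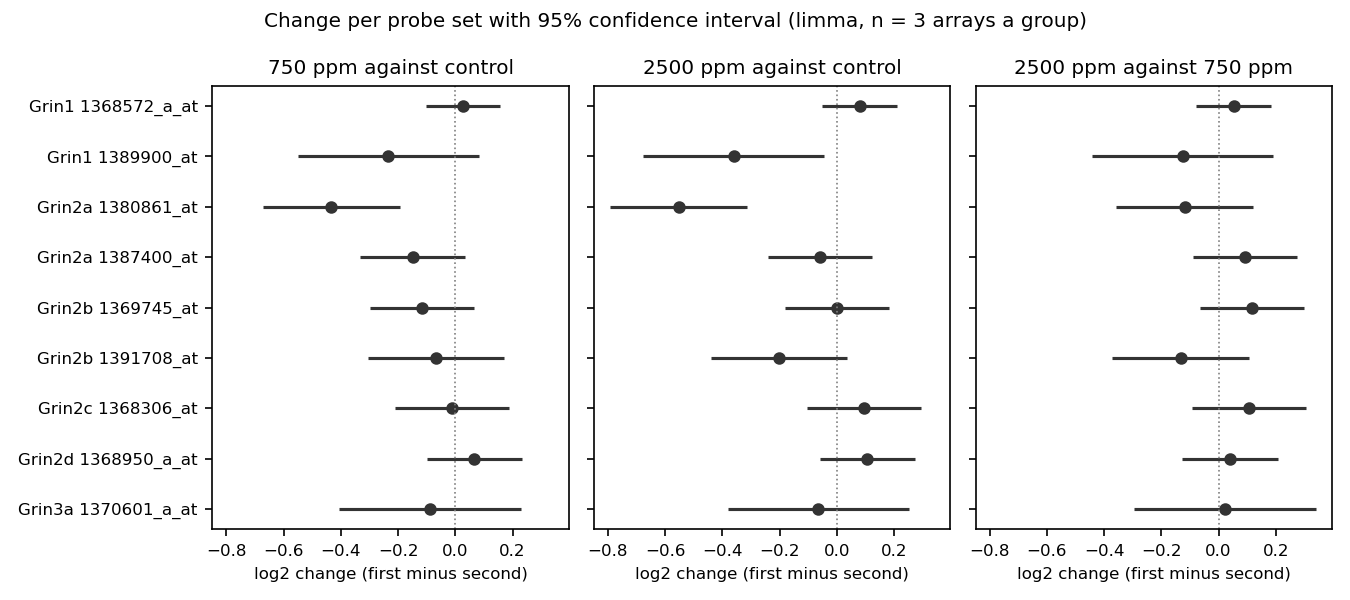
Log2 change of the 9 tested probe sets (points) with 95% confidence intervals (lines) from limma, for 750 ppm against control, 2500 ppm against control and 2500 ppm against 750 ppm, first group minus second. The interval of Grin2a 1380861_at lies wholly below 0 against control in both exposed groups, as does that of Grin1 1389900_at at 2500 ppm, and the other intervals include 0.

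The subunit balance was taken on each array as the log2 value of Grin2b minus that of Grin2a. Probe sets differ in how strongly they bind their target, so this difference is no ratio of transcripts, and only its change between arrays was compared. With the probe set of highest mean for each gene, it was 2.65, 2.95 and 2.25 in controls, 2.81, 2.70 and 2.58 at 750 ppm and 2.49, 2.53 and 2.39 at 2500 ppm. The controls spanned the whole range of the exposed arrays. The balance differed by -0.14 at 2500 ppm against control (exact permutation p = 0.6) and by 0.080 at 750 ppm against control (exact permutation p = 0.8). Leaving out single arrays turned both signs, to 0.022 at 2500 ppm without control replicate 2 and to -0.10 at 750 ppm without control replicate 3. At 2500 ppm it was 0.22 lower than at 750 ppm without overlap (difference -0.22, exact permutation p = 0.1; 0.225 adjusted over 9 tests).

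The direction of that balance depended on the probe sets. With Grin2a 1380861_at and Grin2b 1369745_at it was -0.0068, 0.090 and -0.37 in controls, 0.43, 0.099 and 0.14 at 750 ppm and 0.55, 0.61 and 0.22 at 2500 ppm, so both exposed groups lay above control without overlap. The differences were 0.55 at 2500 ppm and 0.32 at 750 ppm (exact permutation p = 0.1 each), and the exact permutation p over 3 groups was 0.0393, for 1 of 6 possible pairs and without adjustment. The 5 other pairs gave 0.193 to 0.982 in the test over 3 groups. The mean of all tested probe sets of each gene gave a difference of 0.20 at both 2500 ppm and 750 ppm against control (exact permutation p = 0.4 each).

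**Figure D4:**
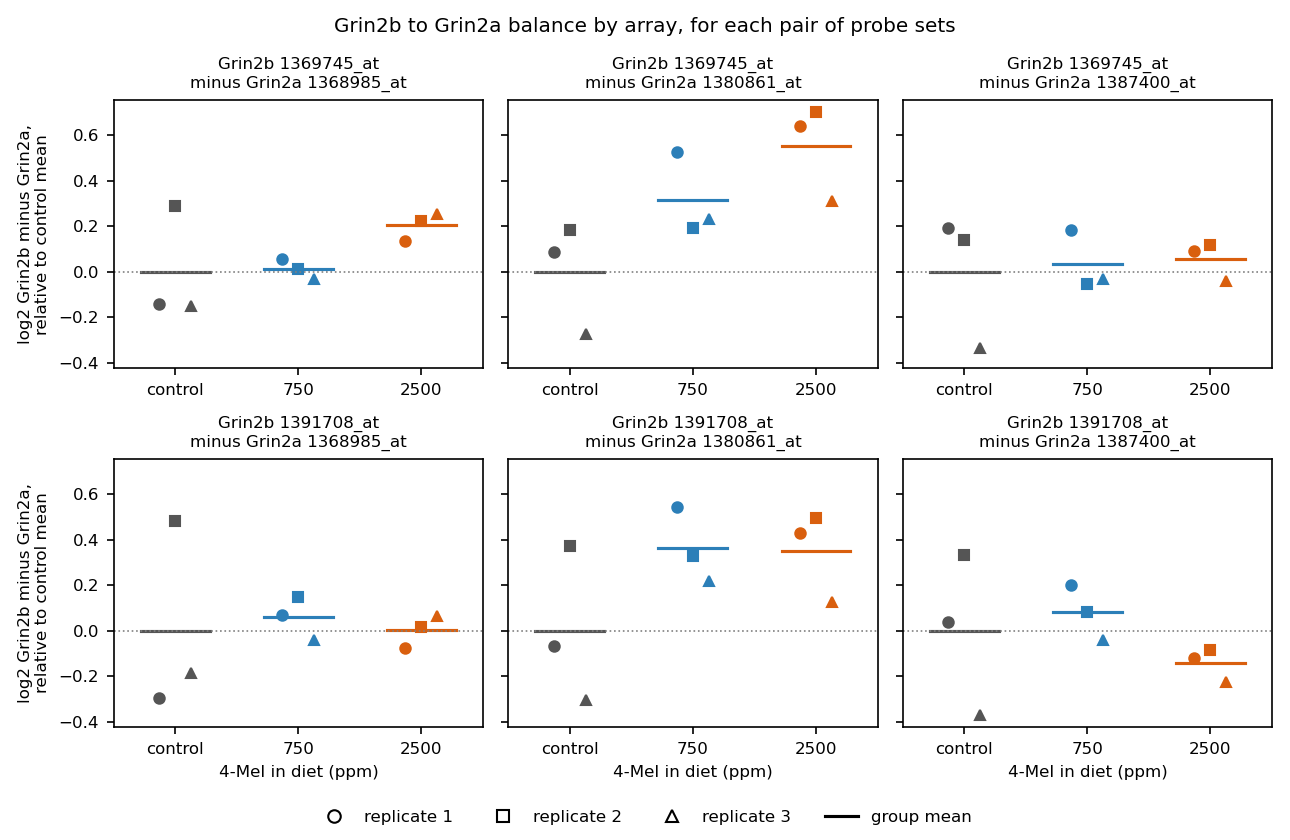
Log2 Grin2b minus log2 Grin2a on each array (points) relative to the control mean (dotted line at 0), for each of the 6 pairs of probe sets, by 4-MeI in the diet (ppm), with group means as lines. In the pair of highest means (bottom right) the 2500 ppm arrays lie below 750 ppm, and in the pair of 1369745_at and 1380861_at (top middle) both exposed groups lie above control.

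Against Grin1, the subunit that all receptors share, the sign again depended on the probe set. Grin2b minus Grin1, on the probe sets of highest mean, was 0.46, 0.80 and 0.32 in controls, 0.40, 0.45 and 0.44 at 750 ppm and 0.27, 0.29 and 0.18 at 2500 ppm. The 2500 ppm arrays lay below all others, with a difference of -0.28 against control and -0.19 against 750 ppm (exact permutation p = 0.1 each; 0.225 adjusted over 9 tests). Without control replicate 2, the highest array, the difference from control was -0.14. With the other Grin1 probe set in its place the difference from control was 0.16 (exact permutation p = 0.5). Grin2a minus Grin1 was -2.19, -2.15 and -1.93 in controls, -2.41, -2.25 and -2.13 at 750 ppm and -2.22, -2.24 and -2.21 at 2500 ppm, a difference of -0.14 at 2500 ppm against control (exact permutation p = 0.1; 0.225 adjusted), which was -0.056 without control replicate 3. With Grin2a 1380861_at in place of 1387400_at, the difference from control was -0.63 at 2500 ppm and -0.46 at 750 ppm, both without overlap (exact permutation p = 0.1 each). The exact permutation p of that pair over 3 groups was 0.00714, for 1 of 6 possible pairs and without adjustment, and the 5 other pairs gave 0.114 to 0.761.

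Probe sets of the same gene followed each other only loosely over the 9 arrays. The Pearson correlation was 0.62 between Grin2a 1380861_at and 1387400_at (exact permutation p = 0.0663, Spearman 0.56 with exact p = 0.121) and 0.37 without the 2 arrays farthest from the median. It was 0.36 between the Grin2b probe sets (exact p = 0.352, Spearman 0.30 with exact p = 0.437; 0.23 without the 2 farthest arrays) and 0.012 between the Grin1 probe sets (exact p = 0.975, Spearman 0.083 with exact p = 0.843; -0.49 without them). The lowest adjusted p over the 6 such relations was 0.35.

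Genes that work with the receptor were examined in 4 lists, by the brightest probe set of each gene, and 0 of their 60 measured members passed the adjusted threshold at 2500 ppm against control, where 0.569% of 11606 genes did. The median of all genes was 0.020 in that comparison. Scaffolds and trafficking partners hold the receptor at the synapse, and 14 of 21 were lower and 7 higher, with a median of -0.072. Akap5, an anchor for kinases and calcineurin, had the largest difference at -1.55 (SE 0.38, adjusted p = 0.113), with 6.40 at 2500 ppm and 7.95 in controls. Its mean at 2500 ppm lay only slightly above the brightness limit of 6.35. The actin linker gene Actn2 was at -0.35 (SE 0.11, adjusted p = 0.172) and the adaptor gene Apba1 at 0.13 (SE 0.056, adjusted p = 0.305). Dlg4, which encodes the scaffold PSD-95, was at -0.18 (SE 0.19, adjusted p = 0.672). Without 750 ppm replicate 3, Akap5 passed (adjusted p = 0.0240), in a fit where 197 of all genes did, against 66 as reported.

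Kinases, phosphatases and calcium effectors of the receptor had a median of -0.049, with 12 of 20 lower and 8 higher. Ptpn5, the phosphatase STEP that dephosphorylates GluN2B, was at -0.42 (SE 0.10, adjusted p = 0.113), the Ras exchange factor gene Rasgrf1 at -0.89 (SE 0.34, adjusted p = 0.256) and the kinase gene Camk2a at -0.52 (SE 0.20, adjusted p = 0.267). With an unadjusted p under 0.05 there were 3 of the 20, where 15.6% of all genes were under it. Without 750 ppm replicate 3, Rasgrf1 (adjusted p = 0.00710) and Camk2a (adjusted p = 0.00615) passed, among those 197 genes. At 750 ppm against control, Ptpn5 was at -0.12, Rasgrf1 at 0.14 and Camk2a at 0.12, with adjusted p from 0.694 to 0.902.

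Enzymes and transporters that handle glutamate, co-agonists or the antagonist kynurenic acid had a median of 0.015, with 7 of 11 higher and 4 lower. Among them Kyat1, which encodes an enzyme that makes the NMDA receptor antagonist kynurenic acid, was at 0.15 (SE 0.054, adjusted p = 0.236), the amino acid exchanger gene Slc1a5 at 0.40 (SE 0.18, adjusted p = 0.339) and Shmt2, a gene of glycine synthesis, at 0.21 (SE 0.10, adjusted p = 0.373). Of 8 measured genes tied to the expression or exchange of subunits, 6 were lower and 2 higher, with a median of -0.12. They included Ezh2 (-0.40, SE 0.11, adjusted p = 0.149) and Eed (-0.13, SE 0.072, adjusted p = 0.411), both of the Polycomb complex that marks histones for silencing, and the metabotropic receptor gene Grm5 (-0.46, SE 0.13, adjusted p = 0.152).

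**Figure D5:**
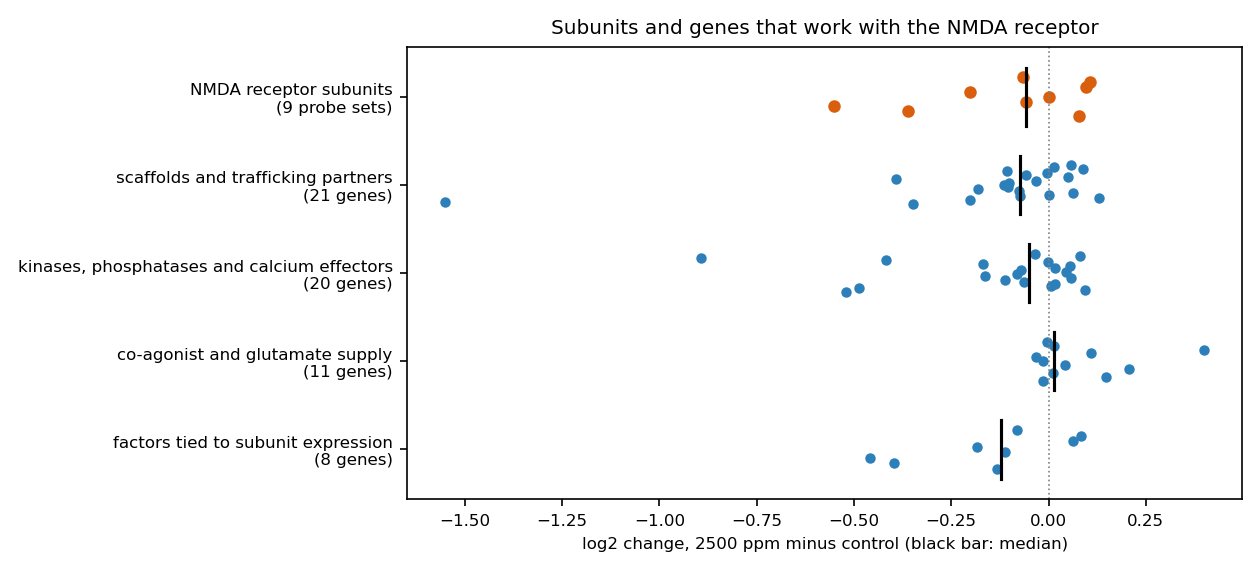
Log2 change at 2500 ppm minus control of the 9 tested subunit probe sets (orange) and of the genes in 4 lists (blue, 1 probe set a gene), with medians as black bars. Most points lie near 0, and the lowest are Akap5 at -1.55, Rasgrf1 at -0.89 and Grin2a 1380861_at at -0.55.

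Markers of some other cell types and tissues moved in the same comparisons. At 2500 ppm the means of astrocyte, oligodendrocyte, hippocampus and cerebellum genes overlapped the controls. At 750 ppm the hippocampus mean lay below all controls and the cerebellum mean above them. That of 4 thalamus genes was 9.48 to 9.59 in controls, 9.35 to 10.04 at 750 ppm and 9.71 to 9.82 at 2500 ppm. At 2500 ppm 3 of these 4 were higher and 1 lower than in controls. The mean log2 level of 15 striatal projection neuron genes was 9.27 to 9.68 in controls and 7.91 to 8.86 at 2500 ppm. At 750 ppm it was 9.54, 9.46 and 7.95 on replicates 1 to 3, so only replicate 3 lay below the controls. All 15 were lower at 2500 ppm than in controls, and 13 of 15 were lower in the mean of the 750 ppm group. The mean of 8 interneuron genes was 10.27 to 10.41 in controls and 9.78 to 9.95 at 2500 ppm. At 750 ppm it was 10.60, 10.54 and 9.62, again below the controls on replicate 3 only. Of these 8 genes, 6 were lower and 2 higher at 2500 ppm than in controls, from -1.09 to 0.30. In the mean of the 750 ppm group, 5 were lower and 3 higher. The mean of 7 genes of all neurons was 12.38 to 12.45 in controls, 12.35 to 12.47 at 750 ppm and 12.41 to 12.56 at 2500 ppm. All 12 meningeal genes were higher at 2500 ppm than in controls, with means of 8.77 to 9.89 in controls, 10.43 to 10.67 at 750 ppm and 10.06 to 10.48 at 2500 ppm. The mean of 6 choroid plexus genes was 6.53 to 6.68 in controls, 6.81 to 7.05 at 750 ppm and 7.67 to 9.0 at 2500 ppm. At 2500 ppm against control 5 of them were higher, led by Ttr (5.67) and Sostdc1 (3.04), and 1 was lower. At 750 ppm against control 3 were higher and 3 lower. Both exposed groups also lay above control without overlap in the mean of 5 endothelial genes, at 9.10 to 9.51 in controls, 9.56 to 9.77 at 750 ppm and 9.61 to 9.71 at 2500 ppm, and of 5 microglial genes, at 7.64 to 7.76 in controls, 7.77 to 8.15 at 750 ppm and 7.87 to 7.89 at 2500 ppm. For the microglial genes the lowest 750 ppm array barely cleared the highest control. At 750 ppm 4 of them were higher and 1 lower than in controls. The part of these shifts in the subunit values was not tested, and in pieces of tissue fewer cells of a type and less RNA per cell cannot be told apart.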

How the data were processed

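The authors deposited log2 RMA intensities per probe set for 9 Affymetrix rat expression arrays, made with the affy package and RMA per the submitters' processing notes (no versions given). The labels' protocols give 100 ng of RNA input and in vitro transcription for 16 hours. RMA carries no detection call. All 11 members matched a current gene by Entrez identifier.

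From 31099 probe sets, 57 AFFX controls were set aside, and the 30% with the lowest mean (under 6.35) were left out, which kept 21729 and 9 of the 11 members. A limma model with a mean for each group covered all 9 arrays (limma 3.58.1, R 4.3.3), with Benjamini-Hochberg adjustment over all probe sets kept, two-sided, at 0.05. The labels give 1 pup per litter and 10 litters sampled, beside 3 arrays a group. How litters were assigned to arrays is not given here, so p-values reflect variation among arrays. Balances were tested by exact permutation, in which 3 arrays against 3 cannot give a p below 0.1.

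Members, lists and tests were chosen with earlier results of these data known. Named list genes are the 3 with the smallest p at 2500 ppm, any that passed, and Dlg4 and Nnat, chosen after their values were seen. Alternatives tried were other filters, scalings and variance models, array weights, the replicate number as a block, fewer arrays, 1 probe set per gene and other probe sets. The gaps between probe sets of 1 gene were added after the values were seen.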

Additional observations from a re-analysis of the deposited data

How the results depend on the processing

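The 36 changes (9 tested probe sets in 4 comparisons) were recomputed under the alternatives, which gave 639 values: 604 kept the direction and side of the threshold, 6 passed it newly, 0 lost a call and 29 changed sign, the last among 12 changes of at most 0.126 as reported. The cause of these shifts was not tested. Some alternatives cannot alter a change between groups, such as another filter or leaving out an array of a group not compared. For these the direction was fixed in advance. At 2500 ppm against control, 1 member passed with array weights and 2 passed with only the arrays of both groups (where 1495 and 481 of all probe sets passed), and leaving out arrays gave 0 to 1. At 750 ppm against control, 1 member passed with array weights. Array weights turned Grin2a 1387400_at to 0.0074 and Grin2b 1369745_at to -0.10 at 2500 ppm against control, Grin2c to 0.011 at 750 ppm against control, and the slopes of Grin2a 1387400_at to 0.0076 and of Grin2b 1369745_at to -0.016.

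Leaving out arrays gave changes at 2500 ppm against control of -0.099 to 0.018 for Grin2a 1387400_at, -0.091 to 0.062 for Grin2b 1369745_at and -0.12 to 0.040 for Grin3a. At 750 ppm against control it gave -0.18 to 0.056 for Grin2b 1391708_at, -0.082 to 0.10 for Grin2c and -0.24 to 0.072 for Grin3a. At 2500 ppm against 750 ppm it gave -0.29 to 0.053 for Grin1 1389900_at, -0.021 to 0.11 for Grin2d and -0.14 to 0.12 for Grin3a. Slopes ran from -0.025 to 0.021 for Grin2a 1387400_at, -0.014 to 0.037 for Grin2b 1369745_at and -0.039 to 0.015 for Grin3a. Leaving out 1 array gave 0 to 1 calls among scaffolds, 0 to 2 among kinases and 0 to 2 among genes that rise after birth, in each case above 0 only without 750 ppm replicate 3.

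Leaving out arrays moved Grin1 1389900_at between -0.41 and -0.045 at 750 ppm against control. Other probe sets turned the Grin2b minus Grin2a balance at 2500 ppm against control to 0.20, 0.55, 0.059, 0.0021 and 0.35, and the mean of tested probe sets to 0.20. At 2500 ppm against 750 ppm they gave 0.19, 0.24 and 0.025, and the mean gave 0.0055. Leaving out arrays gave -0.33 to 0.022 at 2500 ppm and -0.10 to 0.25 at 750 ppm, both against control. For Grin2b minus Grin1, the sign turned with other probe sets, to 0.36 and 0.16 at 2500 ppm against control (mean 0.040), 0.12 and 0.17 at 750 ppm against control (mean 0.012), and 0.064 and 0.24 at 2500 ppm against 750 ppm (mean 0.029); with 1369745_at minus 1368572_a_at it stayed negative, at -0.078 at 2500 ppm and -0.14 at 750 ppm, both against control. Leaving out arrays gave -0.38 to -0.14 at 2500 ppm and -0.20 to 0.042 at 750 ppm, both against control. For Grin2a minus Grin1 the sign turned to 0.16 and 0.30 at 2500 ppm against control, 0.11 and 0.086 at 750 ppm against control, and -0.13 and -0.17 at 2500 ppm against 750 ppm, where a second quantile normalization gave -0.0028 and leaving out arrays gave -0.036 to 0.10; other pairs stayed negative at 2500 ppm against control, at -0.63, -0.28 and -0.19, and leaving out arrays gave -0.19 to -0.056 there.

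Same-numbered arrays of different groups correlated at -0.21 to 0.31 after removal of group means, with 3 of 9 pairs above 0.1. Differently numbered arrays correlated at -0.34 to 0.19, with 5 of 18 pairs above 0.1. With 3 arrays a group, these values cannot decide whether the numbers pair the arrays. With the replicate number as a block, 122 probe sets passed at 2500 ppm against control, 36 at 2500 ppm against 750 ppm and 67 on the slope, against 149, 70 and 104 without it, and 0 members passed; Grin2a 1380861_at had an adjusted p of 0.0614 at 2500 ppm against control. Over all alternatives, the number of all probe sets that passed ran from 9 (without 2500 ppm replicate 2) to 1495 (array weights) at 2500 ppm against control, 0 to 340 at 750 ppm against control, 13 to 1149 at 2500 ppm against 750 ppm and 0 to 543 on the slope. With 3 arrays a group, an exact test of a balance could not reach 0.05 between any pair of groups.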

Other observations

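Genes that mark neuronal age were examined in 2 lists, at a threshold of unadjusted p under 0.05 that 15.6% of all genes met at 2500 ppm against control. Of 10 measured genes known to rise in rodent neurons after birth, 4 were higher and 6 lower at 2500 ppm than in controls (median -0.034), and 0 passed the adjusted threshold in limma, with 4 at an unadjusted p under 0.05. The calmodulin-binding protein gene Nrgn was at 0.42 (SE 0.088, adjusted p = 0.0840) and the potassium channel gene Kcna1 at -0.40 (SE 0.088, adjusted p = 0.0891). Without 750 ppm replicate 3, Kcna1 (adjusted p = 0.0281) and Camk2a (adjusted p = 0.00615) passed, in a fit where 197 of all genes did, against 66 as reported. Of 11 genes known to fall after birth, 5 were higher and 6 lower (median -0.033), with 4 at an unadjusted p under 0.05, all lower: the sodium channel gene Scn3a (-0.47, SE 0.10, adjusted p = 0.0891), the transcription factor gene Sox11 (-0.45, SE 0.11, adjusted p = 0.121), Dpysl3 (-0.31, SE 0.12, adjusted p = 0.245) and Nnat (-0.25, SE 0.10, adjusted p = 0.284). The mean log2 level of these 11 genes was 12.40 to 12.46 in controls, 12.35 to 12.40 at 750 ppm and 12.25 to 12.36 at 2500 ppm, where no array reached a control. That of the 10 genes that rise was 9.87 to 9.95 in controls, 9.75 to 10.04 at 750 ppm and 9.81 to 9.94 at 2500 ppm.

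The genes whose values ran most like each subunit were found among 9812 probe sets by their Pearson correlation over the 9 arrays. With so many compared over so few arrays, values near 0.9 are reached for any member, and no p is given. For Grin2a 1387400_at the closest were Atmin (0.95), Osbpl6 (0.95) and Arhgap20 (0.94). For Grin2b 1391708_at they were Ube2e3 (0.94), Hddc2 (0.94) and Itgb3bp (0.92). Grin2c ran closest to the deubiquitinase gene Usp2 (0.96), Grin3a to Nmt2 (0.93) and the neural adhesion gene Chl1 (0.92), Grin1 1368572_a_at to Fpgs (0.91), and Grin2d 1368950_a_at to Zfp180 (0.92).

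Some deposited values were exactly equal between arrays. For 30.6% of tested probe sets at least 2 arrays held the same value, and for 1.84% at least 4 did. Among the 11 subunit probe sets, 4 had a value shared by at least 2 arrays, Grin2a 1380861_at among them. Grin2a 1387400_at and Grin2d 1368951_at each had a value shared by 4 arrays. Of these, 1368951_at was too dim for the test and so is not among the probe sets behind both shares.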
